A study of Mus musculus with 37 samples.

Results

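Keratins 7, 8, 18, 19 and 20, the keratins of simple epithelium, were followed through 3 bulk RNA sequencing experiments on mouse jejunal organoids. They are 5 of the 31533 gene symbols in the 3 count tables, and were taken by symbol (Krt7, Krt8, Krt18, Krt19 and Krt20). The set was selected on its measured log2 fold changes with VIP and with irradiation in these same samples. Those effects, and the differences between them, are therefore given as a description, with values and errors but no p-values. All 5 genes passed the low-count filter in every comparison.

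The study asked how vasoactive intestinal peptide (VIP), a peptide of enteric neurons, acts on the intestinal epithelium under normal conditions and after irradiation injury. Organoids are cultures grown from intestinal crypts that hold epithelium without nerves, stroma or immune cells. In the first experiment, organoids of adult C57Bl/6 mice were left untreated (3 mice) or received 100 nM VIP for 72 h (4 mice), and whole organoids were sequenced. In the second, organoids of Lgr5-EGFP-IRES-CreERT2 reporter mice were left untreated or received 100 nM VIP for 72 h (4 mice each), and sorted Lgr5-EGFP+ cells were sequenced. In the third, organoids received a single X-ray dose of 6 Gy or none, and were then cultured with or without VIP, for 48 h in the irradiated cultures, and Lgr5-EGFP+ cells were again sorted (4 mice, each in all 4 conditions). The mice were 6 to 12 weeks old and of both sexes, and the labels give neither the age nor the sex behind a culture. In all sorted samples EGFP was driven by the Lgr5 locus, so the sorted cells are those in which that reporter was on, and both treated and control cells carry it. A culture of 1 mouse is the replicate throughout, and mice are numbered within each experiment. Different mice were used in the 3 experiments.

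Keratins are the intermediate filament proteins of epithelial cells, and a filament forms only from pairs of a type II and a type I chain. Krt7 and Krt8 are type II keratins, while Krt18, Krt19 and Krt20 are type I. Keratin filaments are anchored at desmosomes and hemidesmosomes, give the cell mechanical strength and change in amount when epithelial cells are stressed. In the small intestine Krt8, Krt18 and Krt19 are made along the whole crypt and villus, Krt20 marks differentiated cells, and Krt7 is best known from ducts and glands.

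The type II genes and Krt18 lie together on chromosome 15, and Krt19 and Krt20 on chromosome 11 (GENCODE M21 on GRCm38). Krt7 (ENSMUSG00000023039) spans chr15:101411043-101430313 on the plus strand, and the principal transcript has 9 exons. Krt8 (ENSMUSG00000049382) lies at chr15:101996698-102004482 on the minus strand with 9 exons. Krt18 (ENSMUSG00000023043) follows at chr15:102028180-102032027 on the plus strand with 7 exons, head to head with Krt8, and 23.7 kb separate the starts of this type II and type I pair. Krt19 (ENSMUSG00000020911) occupies chr11:100140810-100148665 and has 6 exons, and Krt20 (ENSMUSG00000035775) spans chr11:99428403-99438150 and has 8 exons, both on the minus strand.

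RefSeq promoter windows (GRCm38.p6) were found for 4 of the 5 genes: Krt7, Krt8, Krt18 and Krt20. The 250 bases before the RefSeq start were searched on both strands for the letters of a TATA box (TATAAA), the core of a cyclic AMP response element (TGACG), an AP-1 site (TGANTCA), a GC box (GGGCGG) and a TEAD site (GGAATG). Krt7 and Krt20 are printed because they had the largest fold changes with VIP in whole organoids. Both are written 5′ to 3′ along the gene, with the matched letters in capitals. The Krt7 window is chr15:101412153-101412402 on the plus strand, and the Krt20 window is chr11:99438154-99438403 on the minus strand.
Krt7: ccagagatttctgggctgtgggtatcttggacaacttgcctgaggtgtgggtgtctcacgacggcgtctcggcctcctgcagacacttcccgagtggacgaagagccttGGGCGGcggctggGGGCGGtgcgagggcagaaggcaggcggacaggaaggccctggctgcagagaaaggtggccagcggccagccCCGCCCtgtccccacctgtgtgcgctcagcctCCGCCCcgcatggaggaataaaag
Krt20: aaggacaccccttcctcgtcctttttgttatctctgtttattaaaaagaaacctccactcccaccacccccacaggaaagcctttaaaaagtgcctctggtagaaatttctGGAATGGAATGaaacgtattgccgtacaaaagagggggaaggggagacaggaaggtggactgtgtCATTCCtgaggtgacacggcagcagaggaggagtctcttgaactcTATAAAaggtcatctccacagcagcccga
The capitals in Krt7 are 4 GC boxes, 2 on each strand, and no other motif was found there. The 250 bases held 66% G and C, above the median of 52.4% over all windows. The capitals in Krt20 are 3 TEAD matches, of which 2 overlap by 1 base, and a TATA box 29 bases before the start. The Krt20 window held 48% G and C. None of the 5 motifs was found in the Krt8 and Krt18 windows, part of which GENCODE places inside the first exon. The Krt7 window also lies inside the gene as GENCODE draws it, downstream of the gene start given above, and overlaps an exon of a shorter processed transcript. Of all 32851 windows of this length, 32.7% held a GC box, 12.6% a TEAD match, 12.4% a TATA box, 17.8% a cyclic AMP response core and 6.75% an AP-1 match. A match is a string of letters and no evidence of binding.

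The libraries counted unique molecular identifiers (UMIs), 1 for each captured 3′ end, so a count does not scale with transcript length. Levels are given as UMIs per 1000000 UMIs of the sample (CPM). Whole organoid samples held 3722716 to 6330404 UMIs, Lgr5-EGFP+ samples of the second experiment 575242 to 1104126, and those of the third 1075715 to 1876729. Epithelial identity was checked with Epcam, which lay at 1275 to 1411 CPM in whole organoids and at 796 to 1316 CPM in sorted cells. The 6 mesenchymal markers summed to at most 2.56 CPM, and the 6 immune markers to at most 36.3 CPM. Lgr5, whose reporter the sort was based on, was no higher in sorted cells than in whole organoids. It lay at 42.4 to 116 CPM in whole organoids, at 13.2 to 56.2 CPM in the sorted cells of the second experiment and at 12.2 to 38.3 CPM in those of the third. Whole organoids and sorted cells came from mice of different genotype and from separate experiments. What underlies their Lgr5 levels cannot be told apart.

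One library of the whole organoids stood apart. Each culture of the first experiment but 1 gave a pair of libraries, which were summed. In the culture labelled VIP-treated mouse 3, Krt7 of the second library measured 316 CPM, against 1280 CPM of the first. This is a 4.04-fold difference, where the other 5 pairs differed by at most 1.09-fold. Krt18 (2.12-fold), Krt20 (2.30-fold), Krt19 (1.76-fold) and Krt8 (1.66-fold) were lower in the second library as well, against at most 1.15-fold in the other pairs for any of them. Its Krt7 level lay inside the range of the 5 untreated libraries, 265 to 429 CPM. The goblet cell gene Clca1 (52.3 CPM) and the enterocyte fatty acid binding protein Fabp1 (8180 CPM) differed from the first library (325 and 3027 CPM) in the same way, towards the untreated libraries. Values from whole organoids use both libraries, and those that changed with either one left out are given beside them.

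**Figure D1:**
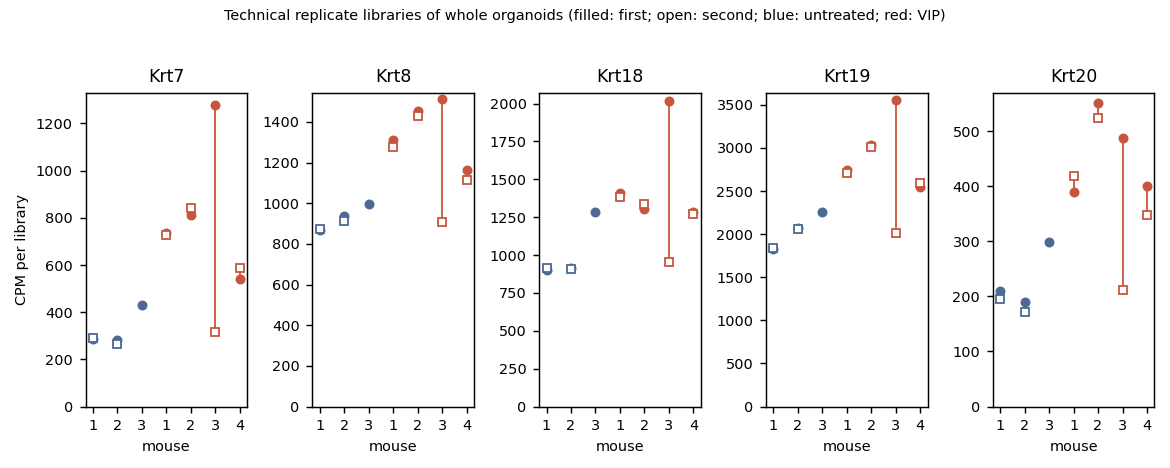
Level of each keratin (CPM, linear axes from 0) in the 13 libraries of whole organoids, by mouse, with the first technical replicate filled and the second open, untreated in blue and VIP in red. The pairs lie close together except in VIP-treated mouse 3, where Krt7 measured 1280 CPM in the first library and 316 CPM in the second.

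In whole organoids all 5 keratins were higher after VIP in each of the 3 mice with both cultures, and Krt7 and Krt20 had the largest folds. All 5 were called higher at an adjusted p of 0.05 or less (edgeR quasi-likelihood test with the mouse as a block), beside 3.72% of all 12727 genes tested. As this contrast was known when the genes were chosen, nothing is read from that count. The median log2 fold change of the 5 was 0.52, beside -0.0041 for all genes tested. In bulk samples, a change in the number of cells that express a keratin and a change in its RNA per cell cannot be told apart.

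Krt7 measured 289.7, 273 and 429 CPM in the untreated organoids of mice 1, 2 and 3. With VIP it measured 732, 828 and 907 CPM in the same mice and 560.4 CPM in mouse 4, which had no untreated culture. Every VIP-treated sample was above every untreated one, and the fold within a mouse ran from 2.11 in mouse 3 to 3.03 in mouse 2. The log2 fold change was 1.33 ± 0.11 (SE, 3 mice). It was 1.51 without the second library of VIP-treated mouse 3 and 0.84 without the first.

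Krt8, the main type II partner of the intestinal epithelium, measured 871, 925 and 997 CPM in the untreated samples. It measured 1294, 1440.1, 1278 and 1141 CPM with VIP in mice 1 to 4. The groups did not overlap, but the change was smaller than that of Krt7, with a log2 fold change of 0.52 ± 0.09 (SE).

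Krt18, the usual type I partner of Krt8, measured 907, 911 and 1284 CPM in untreated organoids. With VIP it measured 1396, 1321, 1604 and 1280.0 CPM. The groups met at one point, where VIP-treated mouse 4 lay just below untreated mouse 3. Within mice 1 to 3 the gene was 1.25-fold to 1.54-fold higher, and the log2 fold change was 0.49 ± 0.09 (SE).

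Krt19, a type I keratin that lacks most of the tail domain, had the most UMIs of the 5 genes in whole organoids. It measured 1837, 2068 and 2261 CPM without VIP, and 2727, 3020.1, 2959.8 and 2568 CPM with VIP. All VIP-treated samples were higher, by 1.31-fold to 1.48-fold within a mouse, and the log2 fold change was 0.49 ± 0.09 (SE).

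Krt20, the type I keratin of differentiated intestinal cells, measured 203, 179.8 and 299 CPM in untreated organoids. With VIP it measured 404, 536, 381 and 377 CPM. The groups did not overlap, but the fold varied more between mice than for the other genes, from 1.27 in mouse 3 to 2.98 in mouse 2. The log2 fold change was 0.97 ± 0.17 (SE).

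How firmly these differences were called depended on single libraries. Without the second library of VIP-treated mouse 3 all 5 keratins were called, with log2 fold changes of 0.61 for Krt8, 0.61 for Krt18, 0.59 for Krt19 and 1.09 for Krt20. In all, 1261 genes were then called, against 614 with both libraries. Leaving out the first library of that culture instead keeps only the one whose Krt7, Clca1 and Fabp1 lay towards the untreated libraries. The values were then 0.34, 0.23, 0.30 and 0.69, still above 0, and no keratin and no other gene was called. Without mouse 1 only Krt7 and Krt20 were called, without the mouse block only Krt7 was, and DESeq2 called all but Krt20. All genes called in these 3 settings numbered 377, 99 and 300.

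**Figure D2:**
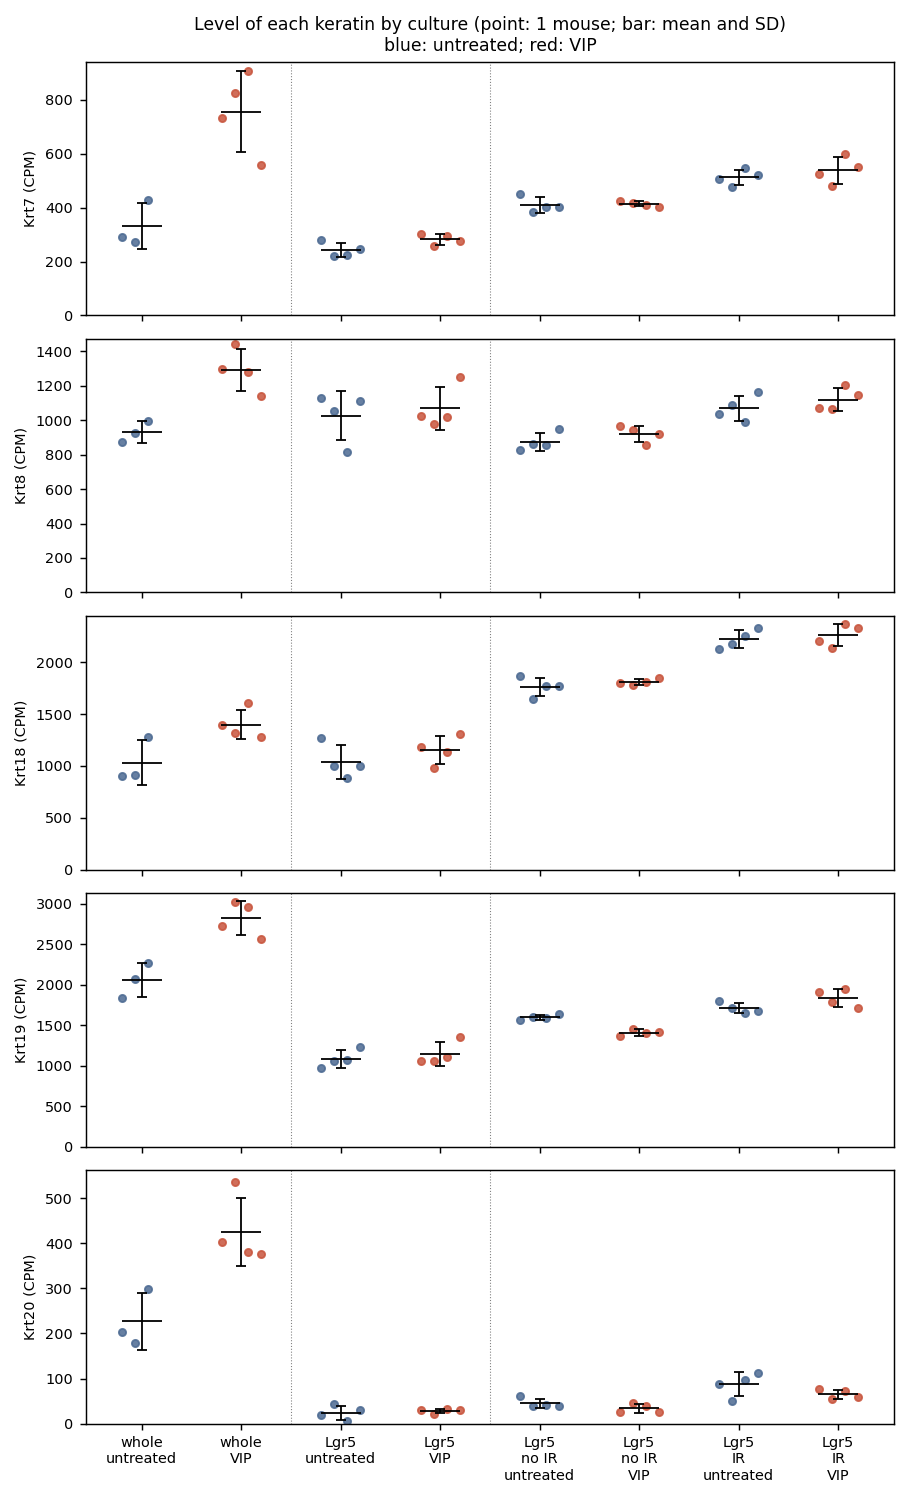
CPM of each keratin in every culture (linear axes from 0), by group, with the mean and SD as bars, untreated in blue and VIP in red. IR stands for irradiated, and dotted lines separate the 3 experiments. Krt7 reached 560.4 to 907 CPM in VIP-treated whole organoids against 273 to 429 CPM in untreated ones, and Krt20 was low in all sorted cells.

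The makeup of the keratin pool shifted towards Krt7. Of the UMIs of the 5 genes in untreated whole organoids, Krt19 held 45.0% ± 2.29 (SD, n = 3), Krt18 22.4% ± 1.76, Krt8 20.5% ± 1.33, Krt7 7.16% ± 0.94 and Krt20 4.91% ± 0.77. With VIP the share of Krt7 was 11.2% ± 1.36 (n = 4) and that of Krt20 6.34% ± 0.89, while Krt19 was at 42.2% ± 0.84. The lowest VIP-treated sample had 9.46% Krt7 and the highest untreated one 8.14%. Without the first library of VIP-treated mouse 3 the VIP-treated samples ran from 7.18% to 11.6% and overlapped the untreated ones. The ratio of type II to type I UMIs was 0.381 ± 0.012 without VIP and 0.439 ± 0.026 with VIP, or 0.425 ± 0.037 without that library. The ratio of Krt8 to Krt18 was 0.918 ± 0.125 and 0.926 ± 0.122, a difference within the spread. The summed level of the 5 genes was 4107 to 5270.4 CPM without VIP and 5926 to 7145 CPM with VIP, or 4404 to 7145 CPM without that library.

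In sorted Lgr5-EGFP+ cells after 72 h of VIP, no keratin was called, beside 0.0885% of all 6778 genes tested. Only 6 genes were called in all, 373 had an unadjusted p under 0.05, and DESeq2 called 2 genes, none of them a keratin. Krt7 measured 278, 222, 225 and 248 CPM in untreated mice 1 to 4, and 301, 257, 296 and 277 CPM with VIP. It was higher with VIP in 4 of 4 mice, by 1.08-fold to 1.32-fold, but the groups overlapped and the log2 fold change was 0.18 ± 0.14 (SE).

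Krt8 lay at 815 to 1125 CPM without VIP and at 979 to 1248 CPM with VIP, and was higher in 2 of 4 mice. Krt18 lay at 883 to 1274 CPM and at 984 to 1307 CPM, also higher in 2 of 4 mice. Krt19 lay at 965 to 1226 CPM and at 1057 to 1356 CPM, with a log2 fold change of 0.05 ± 0.13 (SE). In each of these 3 genes the groups overlapped widely. Krt20 was near the bottom of what these libraries can count: it measured 18.6, 42.8, 6.58 and 30.2 CPM without VIP and 29.9, 20.9, 32.3 and 30.1 CPM with VIP. Its within-mouse fold ran from 0.488 to 4.92, in both directions.

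The VIP effects in the first 2 experiments can be set against each other in 1 fit. The choice of genes rested on those effects, so their differences are a description as well. The VIP effect on Krt7 was smaller in the sorted cells than in the whole culture, with a difference of -1.15 ± 0.18 (SE) on the log2 scale. The differences were -0.49 ± 0.17 for Krt8, -0.37 ± 0.17 for Krt18, -0.45 ± 0.17 for Krt19 and -0.77 ± 0.43 for Krt20, so all 5 lay below 0. Of the 5 keratins 1 was called lower, beside 0.128% of all 10194 genes tested, and nothing is read from that count.

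The Krt7 difference stayed below 0 in all 13 alternatives tried. It was -0.66 without the first library of VIP-treated mouse 3 and -0.99 without the mouse block. The compartment, the experiment, the mice with their genotype and the sort change together here and cannot be told apart.

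Untreated cells of the same 2 experiments were compared as well, with no mouse in common. Compartment, experiment, mouse genotype and sort change together here too and cannot be told apart. The adjusted p-values therefore compare the 2 sets of cultures against the spread between mice, and do not stand for the compartment alone. The choice of genes did not use this contrast, but its untreated cultures also enter the VIP effects that the choice used. Krt20 was lower in Lgr5-EGFP+ cells (6.58 to 42.8 CPM) than in whole organoids (179.8 to 299 CPM), a log2 difference of -2.87 ± 0.35 (SE, adjusted p 1.87e-05). Krt19 was lower too, at 965 to 1226 against 1837 to 2261 CPM, with a log2 difference of -0.63 ± 0.19 (SE, adjusted p 0.0178). These were 2 of 5 keratins called lower, beside 16% of all 8797 genes tested. Krt8 (0.43 ± 0.18, adjusted p 0.0721), Krt18 (0.29 ± 0.20, adjusted p 0.282) and Krt7 (-0.16 ± 0.20, adjusted p 0.590) did not pass in edgeR, while DESeq2 also called Krt8 higher (0.48, adjusted p 0.0136). Without mouse 1 or 2 of both experiments Krt19 was no longer called (adjusted p 0.0860 and 0.0508, edgeR), and without mouse 3 Krt8 (0.61, adjusted p 0.00927) and Krt18 (0.58, adjusted p 0.0141) were called higher. Over all alternatives, the Krt20 call was lost in none that kept the gene. Of the 22 enterocyte markers, 21 could be tested and 19 were lower in the sorted cells, and their part in the keratin differences was not tested. Of 11 stem cell markers tested, 2 were called higher in the sorted cells, Olfm4 (1.21) and Ascl2 (0.67), and none lower. Of 8 goblet cell markers 1 was called higher and 3 lower, and of 6 Paneth cell markers 3 were called lower. Of 5 enteroendocrine markers tested 0 were called, and 4 of 4 regenerative genes tested were lower. Goblet cell markers summed to 3780 to 7319 CPM in the sorted cells and to 5465 to 6786 CPM in whole organoids. All genes called in either direction made up 32.5%. The 12 stem cell markers summed to 4493 to 6404 CPM in the sorted cells and to 2914 to 4895 CPM in whole organoids. Of the partners of keratins, 4 of 14 desmosome and cytolinker genes, 2 of 4 other intermediate filament genes and 3 of 9 genes that bind, fold or cleave keratins were called in either direction, beside 32.5% of all genes tested. The desmosomal plaque genes Jup (-0.97) and Pkp3 (-0.90) were lower and Pkp1 (0.94) higher in sorted cells, as were the chaperones Dnajb6 (1.35) and Hspa8 (0.70), while Casp6 was at -0.76. Lmna (-0.64) was lower and Vim (1.04) higher.

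Scaling shifted all genes in this comparison. By library size alone, with no further normalization, the median over all genes was -0.39, against -0.08 in the values above. With the non-irradiated untreated cells of the third experiment in place of those of the second, Krt20 was again lower (-2.27), Krt7 (0.38) and Krt8 (-0.01) changed sign, and Krt18 was higher (0.85, adjusted p 0.000812, with a range of 0.000812 to 0.987 over all alternatives, edgeR and DESeq2).

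**Figure D3:**
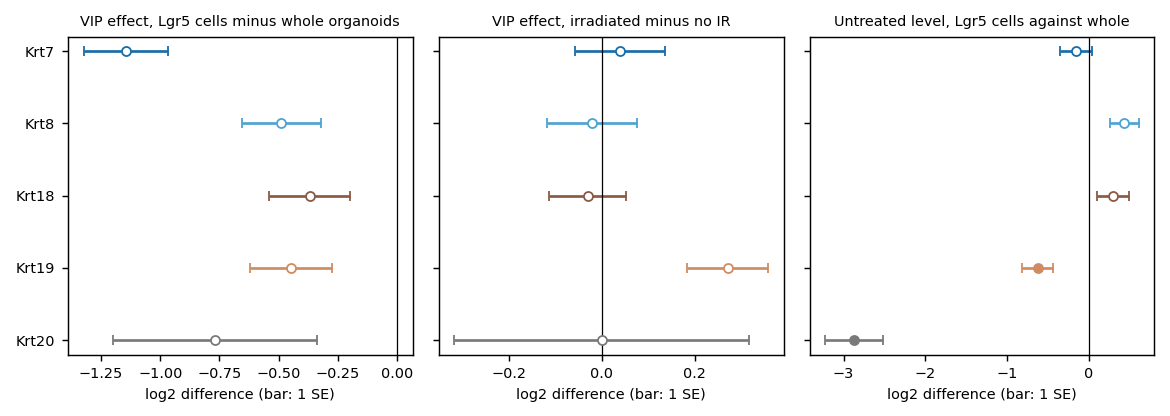
Log2 differences (point) with 1 SE (bar): of the VIP effect between Lgr5-EGFP+ cells and whole organoids (left), of the VIP effect with and without irradiation (middle), and of the untreated level (right). Points are filled in the right panel only, where the adjusted p was 0.05 or less. Krt7 lies at -1.15 in the left panel, Krt19 at 0.27 in the middle one, and Krt19 (-0.63) and Krt20 (-2.87) are filled in the right one.

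In the third experiment, irradiation went with higher keratin levels, whereas VIP did not. Its 4 comparisons share samples: each pair of them that has a group in common uses the same cultures, so they are set side by side and not counted as independent. Of the untreated cells, 4 of 5 keratins were called higher after irradiation, beside 2.87% of all 9976 genes tested, and of the VIP-treated cells 5 of 5, beside 4.32%. Both contrasts were known when the genes were chosen. Every keratin was higher after irradiation in 4 of 4 mice, with and without VIP. The number called in untreated cells was 2 without mouse 3 (Krt8 and Krt18) and 1 without mouse 4 (Krt18). All genes called then numbered 212 and 176, against 445 with all mice. In VIP-treated cells the number of keratins called was 4 without mouse 3 or mouse 4, where Krt8 was not called. All genes called there then numbered 542 and 426, against 776 with all mice.

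Krt7 measured 451, 384, 402 and 402 CPM in non-irradiated untreated cells of mice 1 to 4, and 506, 476, 546 and 522 CPM after irradiation. With VIP it measured 426, 418, 412 and 403 CPM without irradiation, and 525, 480.3, 598 and 552 CPM after it. All irradiated samples were above all non-irradiated ones. The log2 fold change with irradiation was 0.33 ± 0.07 (SE) without VIP and 0.37 ± 0.07 with VIP.

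Krt8 lay at 829 to 949.8 CPM in non-irradiated untreated cells and at 990.0 to 1161 CPM after irradiation, a log2 fold change of 0.30 ± 0.07 (SE). In VIP-treated cells it lay at 855 to 965 CPM and at 1062 to 1204 CPM (0.27 ± 0.07). Krt18 measured 1867, 1646, 1768 and 1773 CPM in non-irradiated untreated cells, and 2135, 2176, 2254 and 2330.2 CPM after irradiation (0.34 ± 0.06). In VIP-treated cells it lay at 1786 to 1849 CPM without irradiation and at 2144 to 2372 CPM with it (0.31 ± 0.06). Neither gene had overlapping groups in either comparison.

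Krt19 was the gene in which the 2 irradiation contrasts looked least alike. In untreated cells it measured 1563, 1594, 1583 and 1642 CPM without irradiation and 1792, 1707, 1651 and 1674 CPM after it, a log2 fold change of 0.10 ± 0.06 (SE) that was not called. In VIP-treated cells it measured 1360.1, 1457, 1403 and 1409.9 CPM without irradiation and 1908, 1784, 1948 and 1706 CPM after it, a log2 fold change of 0.38 ± 0.06. The non-irradiated VIP-treated samples were the lowest 4 of the 16.

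Krt20 was low in these cells but had the largest fold. It measured 60.3, 38.9, 40.6 and 38.7 CPM in non-irradiated untreated cells of mice 1 to 4, and 88.2, 49.9, 97.6 and 113 CPM after irradiation. With VIP it measured 25.5, 46.3, 38.4 and 25.6 CPM without irradiation and 76.2, 55.1, 71.8 and 59.3 CPM with it. The groups overlapped in untreated cells, where irradiated mouse 2 lay below non-irradiated mouse 1, and did not overlap in VIP-treated cells. The log2 fold change was 0.94 in both (SE 0.20 and 0.21), and the fold within a mouse ran from 1.19 to 2.98.

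VIP itself changed none of the 5 enough to be called in sorted cells of this experiment. Without irradiation the share of all genes called was 0.742%, and after irradiation 0.221%, by edgeR. The log2 fold changes with VIP were 0.01 for Krt7, 0.07 for Krt8 and 0.03 for Krt18 without irradiation, and 0.05, 0.05 and 0.0034 after it. Krt19 was lower with VIP in 4 of 4 mice without irradiation (-0.19 ± 0.06), with no overlap between the groups, and higher in 4 of 4 mice after irradiation (0.08 ± 0.06), where the groups overlapped. Krt20 was at -0.40 in both, lower in 3 of 4 mice each time. Of the 5, 1 had an unadjusted p under 0.05 in each VIP comparison (edgeR), Krt19 without irradiation and Krt20 after it. Of all 9976 genes, 1237 did without irradiation and 574 after it. Nothing is read from these counts, and DESeq2 called none of the 5.

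The difference between the VIP effects with and without irradiation called no gene of 9976 (0%, edgeR), while 634 had an unadjusted p under 0.05, and DESeq2 also called 0. As a difference of effects that the choice of genes used, it is a description for the keratins. It was 0.27 ± 0.09 (SE) for Krt19, 0.04 ± 0.10 for Krt7, -0.021 ± 0.096 for Krt8, -0.030 ± 0.083 for Krt18 and -0.00022 ± 0.32 for Krt20.

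**Figure D4:**
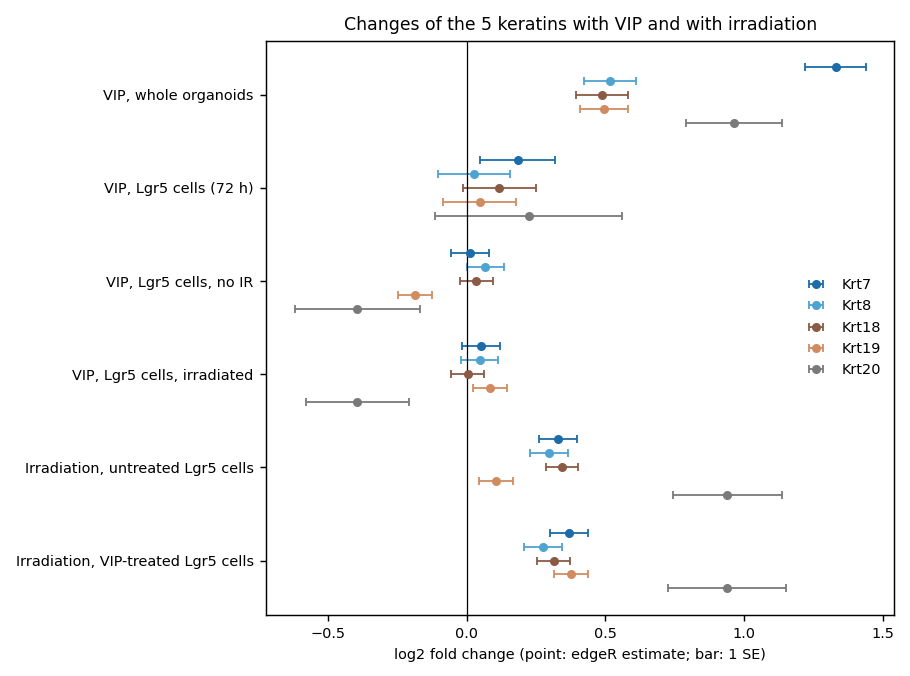
Log2 fold change (point) and 1 SE (bar) of each keratin in the 6 comparisons with VIP and with irradiation, with IR for irradiation. Krt7 (1.33) and Krt20 (0.97) lie farthest to the right with VIP in whole organoids. The VIP comparisons in sorted Lgr5-EGFP+ cells lie on both sides of 0. They run from -0.40 (Krt20 in the third experiment, with and without irradiation) to 0.22 (Krt20 in the second). All points of both irradiation comparisons lie above 0.

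Markers of some epithelial cell types moved with the same conditions. In whole organoids the 8 goblet cell markers summed to 5465 to 6786 CPM without VIP and to 7801 to 9329 CPM with VIP, and 6 of 8 were called higher (Clca1 by 2.08 on the log2 scale). The 9 regenerative epithelium genes summed to 86.6 to 109 CPM and to 293 to 516 CPM, and 6 of 6 tested were called higher (Anxa3 by 2.26, Il1rn by 2.59 and Anxa1 by 2.54 on the log2 scale). The 22 enterocyte markers summed to 19738 to 21893 CPM and to 16875 to 20963 CPM, with 3 called higher and 4 lower. Paneth cell markers summed to 5276 to 11497 CPM without VIP and to 6094 to 10656 CPM with VIP, and 1 of 6 was called higher. Of the enteroendocrine markers 1 of 6 was called higher, and 0 of 12 stem cell and 0 of 4 tested tuft cell markers were called. Of all genes 4.82% were called in either direction. Without the first library of VIP-treated mouse 3 no gene was called, the goblet cell markers with VIP summed to 6705 to 9329 CPM and the regenerative genes to 85.4 to 516 CPM, and Clca1 was at 1.45 and Anxa3 at 1.64. The part of these markers in the keratin differences was not tested.

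With irradiation of untreated Lgr5-EGFP+ cells, the 6 Paneth cell markers summed to 3964 to 6311 CPM before and 6759 to 13994 CPM after, and 5 of 6 were called higher. Goblet cell markers were called higher in 5 of 8, enteroendocrine markers in 3 of 6 and regenerative genes in 5 of 6 tested, and enterocyte markers were called higher in 6 and lower in 1 of 19 tested, beside 4.46% of all genes called. The 6 immune markers summed to 3.28 to 11.9 CPM before and 9.42 to 36.3 CPM after, and Cd74, the 1 that could be tested, was called higher (by 2.09 on the log2 scale). Stem cell markers summed to 3941 to 4992 CPM before and 2973 to 3400.3 CPM after, with 2 of 11 tested called lower, Olfm4 and Smoc2. In VIP-treated cells the called numbers were 5 Paneth, 6 enteroendocrine, 3 goblet, 5 regenerative and 2 enterocyte markers higher, and 3 stem cell markers lower with 1 higher, beside 7.78% of all genes called. The part of these cell types in the keratin differences was not tested.

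With VIP in sorted cells, the enterocyte markers of the third experiment summed to 2235 to 2943 CPM without VIP and to 1785 to 2261 CPM with it in non-irradiated cells, where Fabp1 (-0.95) and Fabp2 (-0.41) were called lower. After irradiation they summed to 2518 to 4617 and to 2313 to 2485 CPM, and Fabp1 (-1.37), Rbp2 (-1.60) and Cyp3a11 (-1.47) were called lower. Their median log2 fold changes were -0.30 and -0.64 over 19 tested. The share of all genes called was 0.742% in non-irradiated and 0.221% in irradiated cells. The stem cell gene Olfm4 was called higher in both (0.57 and 0.35), and the goblet cell gene Fcgbp lower after irradiation (-1.05) and in the second experiment (-0.97). In the second experiment the 9 regenerative genes summed to 12.7 to 35.4 CPM without VIP and to 57.4 to 86.0 CPM with it. None of them passed the low-count filter there. In the third their sums overlapped, at 142 to 200 and 126 to 169 CPM without irradiation. After irradiation they were 292 to 361 and 296 to 420 CPM, and 0 of 6 tested were called with VIP in either. The part of these markers in the values of Krt19 and Krt20 was not tested. Tuft cell markers were not called in any VIP or irradiation comparison (edgeR, 0 of at most 4 tested).

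The partners of keratin filaments were looked at as lists. Of 16 desmosome and cytolinker genes, 15 could be tested in whole organoids and 3 were called higher with VIP: plectin (Plec, 0.65 ± 0.10, SE), which ties keratins to hemidesmosomes, periplakin (Ppl, 0.89 ± 0.16) and envoplakin (Evpl, 1.03 ± 0.25), which link keratins to the cell border. None was lower, and the median of the 15 was 0.26, beside -0.0041 for all genes. The 3 stand beside 3.72% of all genes called higher, and without the first library of VIP-treated mouse 3 neither they nor any other gene was called in whole organoids. None was called with VIP in any sorted-cell comparison (edgeR). With irradiation, desmoplakin (Dsp, 0.97 ± 0.17) and desmoglein 2 (Dsg2, 0.64 ± 0.17) were called higher in VIP-treated cells, beside 4.32% of all genes, and none of 15 was in untreated cells.

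Of 16 other intermediate filament genes, 7 were tested in whole organoids and 1 was called with VIP, beside 4.82% of all genes. This was the nuclear lamin Lmna (0.82 ± 0.11, SE). It was called with irradiation as well, by 0.67 ± 0.08 without VIP and 0.80 ± 0.08 with VIP, together with vimentin (Vim, 1.31 ± 0.21 and 1.004 ± 0.218). In untreated cells Lmna and Vim were 2 of 6 tested, beside 4.46% of all genes called. In VIP-treated cells 3 of 6 tested were called higher and 1 lower, beside 7.78%. Lmnb1, a lamin of the nuclear envelope, fell by 0.43 on the log2 scale with irradiation of VIP-treated cells and was higher by 0.39 with VIP in non-irradiated cells. In that VIP comparison it was 1 of 6 tested, beside 0.742% of all genes called. Of 12 genes that bind, fold or cleave keratins, 11 were tested in whole organoids. There Sfn, a 14-3-3 protein of epithelial cells, was higher with VIP (0.76 ± 0.10), and Casp6, a caspase that cuts keratin 18, fell by 0.37. No other gene of the 11 was called, beside 4.82% of all genes called in either direction. Without the first library of VIP-treated mouse 3, Lmna was at 0.51 and Sfn at 0.49. With irradiation of VIP-treated cells the chaperone Hspa8 fell by 0.32, and no gene of this list was called in untreated irradiated cells or with VIP in sorted cells (edgeR). Hspa8 was 1 of 11 tested, beside 7.78% of all genes called.

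The tables held 34 other keratin symbols, and the 5 genes described here made up most of what was counted. They held 98.2% of all keratin UMIs in whole organoids, 98.0% in the second experiment and 95.7% in the third. Krt23, a type I keratin, was the most abundant of the others with 2870 UMIs over all whole organoid libraries. Of 5 other keratins tested in whole organoids, 2 were called higher with VIP, Krt23 (1.13 ± 0.11, SE) and Krt4 (3.08 ± 0.30), a type II keratin of stratified epithelium. Of all genes 3.72% were called higher there. Without the first library of VIP-treated mouse 3, Krt23 was at 0.62 and Krt4 at 2.56. With irradiation, Krt23 was called higher in untreated cells (0.59 ± 0.10), and Krt23 (0.85 ± 0.10), Krt15 (1.57 ± 0.26) and Krt4 (1.65 ± 0.36) in VIP-treated cells, of 6 tested. The share of all genes called higher was 2.87% in untreated and 4.32% in VIP-treated cells. None was called with VIP in sorted cells (edgeR). Of the untreated cells, the sorted ones had more Krt10 than whole organoids (1.31 ± 0.33) and less Krt23 (-0.87 ± 0.29). Only these 2 other keratins could be tested there, beside 32.5% of all genes called in either direction.

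The composition of the keratin pool also differed between the experiments. In untreated Lgr5-EGFP+ cells of the second, Krt8, Krt18 and Krt19 held 30.0%, 30.4% and 31.8% of the UMIs of the 5 genes, Krt7 7.14% and Krt20 0.71%. In non-irradiated untreated cells of the third they held 18.7%, 37.6%, 34.0%, 8.74% and 0.95%. The ratio of Krt8 to Krt18 was 0.992 ± 0.105 (SD, n = 4) in the second and 0.497 ± 0.042 in the third experiment, and no sample of one reached the range of the other. These experiments are in separate count tables and used other mice, and what differs between them cannot be told apart. Within the third experiment the ratio stayed at 0.481 to 0.508 in all 4 groups.

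**Figure D5:**
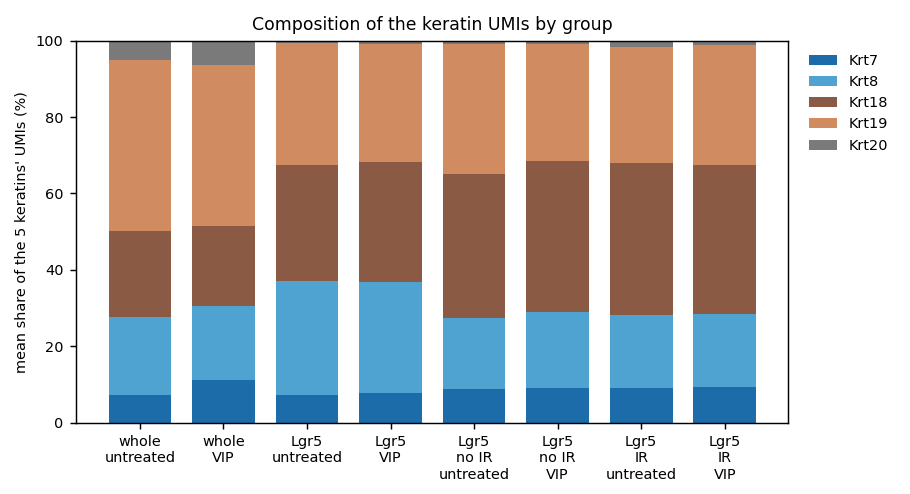
Mean share (%) of each keratin in the UMIs of the 5 genes, by group, with IR for irradiated. Krt7 rises from 7.16% to 11.2% with VIP in whole organoids, Krt20 is at most 1.55% in sorted cells, and Krt8 is a smaller part of the third experiment (18.7%) than of the second (30.0%).

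Over the 30 samples of mice with more than 1 culture, levels centred on each mouse rose and fell together. Pearson's r between 2 of the 5 genes lay between 0.66 (Krt7 and Krt20) and 0.94 (Krt8 and Krt18). These samples share libraries, mice and treatments, so the values are a description. Centring on the mouse leaves the VIP and irradiation effects in the levels. The 5 genes were chosen on those effects, so their correlation with each other follows in part from the choice. Among 6730 genes, those most like Krt7 were S100a11 (0.94), Lgals3 (0.93) and Anxa2 (0.93). Those most like Krt8, beside Krt18, were Cystm1 (0.92) and Anxa5 (0.91), and Anxa5 (0.94) was the closest to Krt18. Krt19 was closest to Gsta4 (0.90), S100a14 (0.89) and Gch1 (0.87), and Krt20 to Apoa1 (0.84), Ctnnb1 (0.83) and Itgb4 (0.83).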

How the data were processed

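RNA was sequenced in 37 libraries of whole jejunal organoids and sorted Lgr5-EGFP+ cells. The authors barcoded each library, amplified 3′ ends and obtained a UMI count per gene from GRCm38 and GENCODE M25 (Drop-seq pipeline, version 1.0). What they deposited is that count, not normalized, for 27407, 20500 and 27547 genes in 13, 8 and 16 libraries, and how reads shared with near-identical gene copies were counted is not given in the sources used here. Counting error is smallest in whole organoids, with the deepest libraries, and largest for Krt20 in sorted cells.

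Technical replicate libraries were summed. Tests used edgeR 4.0.16 under R 4.3.3 (TMM normalization, filterByExpr by group, quasi-likelihood test, Benjamini-Hochberg adjustment over all genes tested, threshold 0.05), with the mouse as a block except between untreated Lgr5-EGFP+ cells and whole organoids, where no mouse is shared. SEs are the log2 fold change divided by the root of F. Log2 CPM used a prior count of 2. DESeq2 1.42.0, other scalings and filters and left-out mice or libraries were the alternatives, of which leaving out the first library of VIP-treated mouse 3, and either library for shares and gene lists, was chosen after seeing the data. The test was also run on data simulated without mouse effects and without a discordant library pair. Nothing about the calls given here is read from that run. Same-numbered samples come from the same mouse by the labels. As a check, deviations from the group mean were correlated across genes between cultures. Within 1 mouse r was 0.27 to 0.63 in whole organoids, 0.03 to 0.21 in the second experiment and -0.07 to 0.16 in the third. Between different mice it was -0.54 to 0.33, -0.14 to 0.15 and -0.20 to 0.20. The medians were 0.52 against -0.11, 0.15 against -0.06 and 0.05 against -0.01. The ranges overlapped in all 3, so the pairing rests on the labels.

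The 5 keratins and all gene lists were chosen with earlier results of these data known. Genes named are these 5, of each list other than cell type markers up to 3 called genes of smallest p per comparison, and the 3 genes closest to each keratin in pattern. The cell type markers named beside them were picked after their values were seen. Replicates are cultures of separate mice.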

Additional observations from a re-analysis of the deposited data

Results flagged for a closer look

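Of 49 groups of keratin values examined, 4 had a sample far from the others by Dixon's test, and chance alone gives about 1 in 20. In VIP-treated whole organoids, Krt20 in mouse 2 measured 536 CPM, against 377 to 404 CPM in the other 3 mice. Among sorted cells of the second experiment with VIP, mouse 4 was the highest for Krt8 (1248 CPM) and for Krt19 (1356 CPM). In non-irradiated untreated Lgr5-EGFP+ cells of the third experiment, Krt20 in mouse 1 measured 60.3 CPM, against 38.7 to 40.6 CPM in the others.

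The VIP effect on Krt7 differed between Lgr5-EGFP+ cells and whole organoids by -1.15 on the log2 scale. It is a difference of effects known when the gene was chosen, so it is given without a p-value and is no independent test. Whether the compartment, the sort, the experiment, the genotype or the mice underlie the difference cannot be told apart.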

How the results depend on the processing

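Over 487 values of a single keratin under an alternative, 22 changed sign, none of them called at first, 28 lost a call and 5 gained one. The number of keratins called with VIP in whole organoids was 5. It was 2 to 5 with a mouse left out, 0 without the first library of VIP-treated mouse 3 and 1 without the mouse block (99 genes in all, against 614). All genes called numbered 363 to 1668 with a mouse left out and 0 without that library. Without the block, which pairs the cultures of a mouse, the number called for the VIP difference between compartments was 0 (Krt7 -0.99) and the effect of irradiation on the VIP effect on Krt20 was 0.013. With a mouse left out, 4 or 5 keratins were called with irradiation of VIP-treated cells (5 with all mice). All genes called were then 426 to 691 (776 with all mice). With irradiation of untreated cells 1 to 4 keratins were called, among 176 to 643 genes in all (4 and 445 with all mice). There the number was 2 without mouse 3 and 1 without mouse 4. For the VIP difference between compartments 0 to 2 keratins were called, among 4 to 39 genes in all (1 and 15 with all mice). That number was 0 without mouse 1, 2 or 4. Between untreated compartments it was 1 to 4 (2 with all mice). With at least 10 counts in every sample, which drops Krt20, it was 1. Without the first library of VIP-treated mouse 3 the VIP difference between compartments called 0.

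The effect of irradiation on the VIP effect ranged over left-out mice from -0.12 to 0.037 for Krt8, -0.070 to 0.00064 for Krt18 and -0.33 to 0.13 for Krt20, the last also at 0.016 by library size, 0.014 without a filter and 0.0034 with at least 10 counts. The VIP difference between compartments of Krt20 ran from -1.44 (without mouse 3) to 0.042 (without mouse 2), and Krt7 between untreated compartments from -0.31 to 0.14 (without mouse 3). With the third experiment's untreated cells, Krt7 was at 0.38 and Krt8 at -0.0093 in that comparison. The cause of these changes was not tested. Depth limits Krt20 in sorted cells most.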
